A study of Mus musculus with 2 samples.

Results

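The small exons described here are internal exons of 28 to 51 bp that at least 1 read left out. They were taken from the transcript models that the authors deposited for known genes. An exon was included by a read whose chain of junctions held both of its splice junctions, and skipped by a read that joined the same neighbouring exons directly. Percent spliced in is the share of inclusion reads among the inclusion and skipping reads. An exon was kept when it had 10 or more such reads in each library and 1 or more skipping reads over both. These reads chose 807 small exons in 685 genes, of 9311 exons of 3 to 300 bp that met the same rule and of 153198 internal exons of that length with a read. The percent spliced in of the exons is therefore a description and was not tested.

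The tissue was the left cerebral cortex of B6CASTF1/J males, the first-generation cross of C57BL/6J with the wild-derived CAST/EiJ strain, at 14 days of age. Long-read RNA sequencing, in which a single read can span most of a transcript, gave 2 libraries of 1 group, each made from 2 µg of total RNA. No treatment or genotype was compared, and the cross was shared by both libraries. The labels give both samples a single donor identifier and mention several males, so each may be a pool, and separate animals are not shown. Differences between the libraries may therefore be technical.

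Replicate 1 held 782521 reads and replicate 2 held 935052, of which 632568 and 741010 were spliced reads of known genes. Markers of excitatory cortical neurons (Slc17a7, 1060 and 1216 reads; Tbr1, 96 and 97 reads), inhibitory neurons, astrocytes, oligodendrocytes and microglia were present in both. The striatal genes Drd1 (41 and 5 reads) and Rgs9 (75 and 16 reads) were higher in replicate 1, and the choroid plexus gene Ttr (28 and 228 reads) in replicate 2, and their part in differences of exon use was not tested. In such tissue RNA, a shift in the share of a cell type and a shift in splicing within it cannot be told apart. Among regulators known for brain splicing, Rbfox1 had 54 and 63 reads and Rbfox2 65 and 67, while Rbfox3 had 254 and 367, Nova1 34 and 20, and Srrm3 13 and 27 in replicate 1 and replicate 2. Their part in differences of exon use was not tested. Srrm4, the main activator of neuronal microexons, had 5 and 7 reads.

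An internal exon shorter than about the span of the factors that meet across it is difficult for the splicing machinery to define, and many such exons depend on sequence-specific regulators. In neurons the shortest class, the microexons, is known for regulated inclusion that adds a few amino acids to proteins of the synapse, the cytoskeleton and membrane traffic. The small exons stand next to this class in length. A coding exon whose length is a multiple of 3 can be left out without a shift of the reading frame.

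Sequences of annotated exons that stood between full inclusion and full skipping are given first, because these exons carry most of the variation described. Each shows the exon in capitals, with the last 20 bases of the exon before it and the first 20 of the exon after it in lower case, 5′ to 3′, from GENCODE M21 transcripts on mm10.
Ndrg4 39 bp: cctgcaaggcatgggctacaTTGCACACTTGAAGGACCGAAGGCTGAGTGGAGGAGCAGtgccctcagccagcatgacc
Aplp2 36 bp: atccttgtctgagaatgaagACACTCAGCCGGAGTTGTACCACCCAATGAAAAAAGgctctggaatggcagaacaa
Tecr 45 bp: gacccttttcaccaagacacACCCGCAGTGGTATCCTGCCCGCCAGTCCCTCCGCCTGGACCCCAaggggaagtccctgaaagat
Clstn1 30 bp: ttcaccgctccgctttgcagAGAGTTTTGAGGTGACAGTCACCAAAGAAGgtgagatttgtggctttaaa
Acly 30 bp: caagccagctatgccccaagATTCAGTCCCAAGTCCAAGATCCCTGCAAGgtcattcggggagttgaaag
Mff 33 bp: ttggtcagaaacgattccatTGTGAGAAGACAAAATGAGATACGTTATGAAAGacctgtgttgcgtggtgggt
Dnm1l 39 bp: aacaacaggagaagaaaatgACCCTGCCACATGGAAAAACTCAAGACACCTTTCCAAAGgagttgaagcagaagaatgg

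In mm10 these exons lie at chr8:95712325-95712363 (Ndrg4, plus strand), chr9:31156190-31156225 (Aplp2, minus strand), chr8:83573411-83573455 (Tecr, minus strand), chr4:149626087-149626116 (Clstn1, plus strand), chr11:100503160-100503189 (Acly, minus strand), chr1:82745524-82745556 (Mff, plus strand) and chr16:16342697-16342735 (Dnm1l, minus strand). All are coding exons of the annotation with lengths divisible by 3.

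The share of exons with a skipping read lay between those of microexons and of longer exons. Of 2743 annotated small exons with 10 or more reads in each library, 554 had a skipping read (20.2%), against 133 of 283 microexons of 3 to 27 bp (47.0%) and 5916 of 55387 exons of 52 to 300 bp (10.7%). Median reads per annotated exon before this step were 77, 76 and 76, so the classes had similar depth. Exons are not samples, and no test was made between the classes.

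Annotated small exons covered the whole range of inclusion, and unannotated ones were mostly rare. The 554 annotated exons, in 506 genes, had a median percent spliced in of 85.2 (quartiles 20.4 and 98.0). Of these, 258 stood over 90%, 184 between 10 and 90%, and 112 under 10%. The other 253 exons were absent from the annotation and had a median of 1.39%, with 234 under 10%. Among annotated exons chosen by the same reads, the share between 10 and 90% was 33.2% for small exons, 42.1% for microexons and 19.6% for longer exons. With Known models alone, those that match an annotated transcript in full, 157 small exons met the rule, with 84 between 10 and 90%. The median was 82.7% for the annotated microexons and 96.7% for the annotated longer exons. Of the 554 annotated small exons, 136 had only 1 skipping read over both libraries. With 5 or more skipping reads, 336 annotated small exons remained, with a median of 34.5% and 51.8% of them between 10 and 90%. By that rule the share between 10 and 90% was 60.2% for annotated microexons and 46.8% for annotated longer exons.

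**Figure D1:**
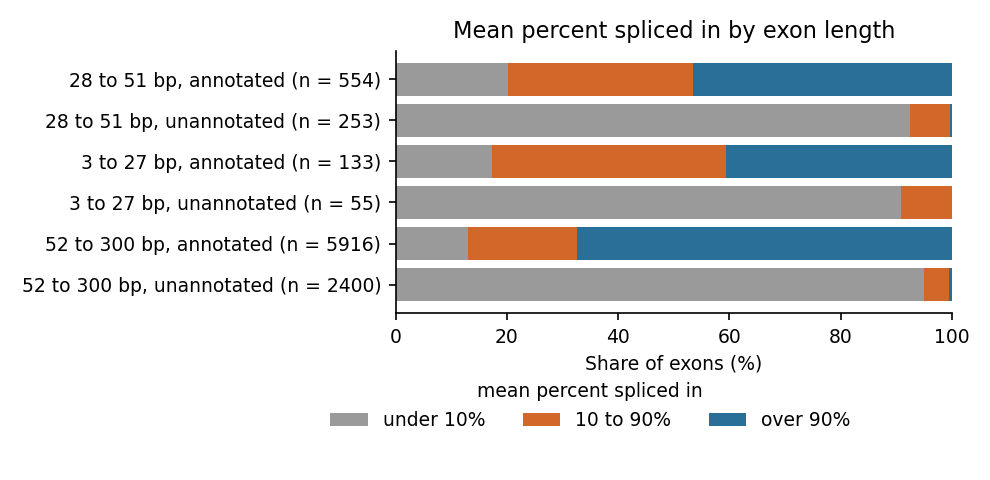
Shares of exons by mean percent spliced in of both libraries (x axis, percent of exons) for annotated and unannotated exons of 28 to 51 bp, 3 to 27 bp and 52 to 300 bp that met the same read rule. Annotated small exons held 33.2% between 10 and 90% spliced in, and unannotated exons of each length were mostly under 10%.

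Unannotated small exons were mostly single observations. Of the 253, 167 rested on 1 inclusion read over both libraries, and 64 had an inclusion read in both. They lay with no annotated splice site inside introns or between exons (164 exons), used 1 annotated splice site and overlapped an annotated exon (60), or overlapped an annotated exon with no annotated site (29). Their neighbours were joined by an annotated junction in 242 of 253, so the transcript without them was usually the annotated one.

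Several unannotated exons rested on more reads. The Snrpn exon was among the 10 small exons with most reads, and those of Gphn and Pacs2 were chosen after their values were seen. In Snrpn, an imprinted gene that encodes a component of spliceosomal particles, an exon of 44 bp at chr7:59993662-59993705 was held by 14 of 1414 reads in replicate 1 (0.990%, 95% Wilson interval 0.591% to 1.66%) and 19 of 1686 in replicate 2 (1.13%, 0.723% to 1.75%). In Gphn, the gene of the inhibitory-synapse scaffold gephyrin, an unannotated exon of 39 bp was included by 16 reads and skipped by 71 in replicate 1, and included by 11 and skipped by 60 in replicate 2. In Pacs2, a sorting protein gene, an unannotated exon of 33 bp had 12 inclusion and 12 skipping reads in replicate 1 and 17 and 11 in replicate 2, or 50% and 60.7%. The Snrpn and Gphn exons lay near 1% and 17%, and the Pacs2 exon near the middle of the range, in both libraries.

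The coding sequence held most of the annotated small exons, and those outside it were included less. Of the 554, 423 lay wholly in coding sequence (median 94.1%), 39 partly (46.3%), 40 in 5′ untranslated sequence (17.8%), 3 in 3′ untranslated sequence, 23 only in transcripts annotated as targets of nonsense-mediated decay (3.33%) and 26 only in other noncoding transcripts (4.26%). The lowest annotated small exon was of this kind, a 45-bp exon of the cytoskeletal actin gene Actg1 that was held by 1 of 1581 reads in replicate 1 and by 0 of 1506 in replicate 2, which allows a share of up to 0.199%. Intervals and this floor of 3 reads cover counting error only.

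Coding exons with a length divisible by 3 had the lower median percent spliced in. Lengths divisible by 3 made up 66.0% of the 423 coding small exons (279), against 83.1% of 118 coding microexons and 47.6% of 4605 coding longer exons. The 279 frame-preserving small exons had a median of 84.7%, and 110 of them stood between 10 and 90%. The 144 coding small exons of other lengths had a median of 97.2%, and 31 stood between 10 and 90%, while 107 stood over 90%. The corresponding medians were 79.2% and 98.8% in microexons and 97.2% and 97.8% in longer exons. Of the 47 coding small exons under 10%, 41 had a length divisible by 3. Of the 235 over 90%, 127 had only 1 skipping read over both libraries.

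**Figure D2:**
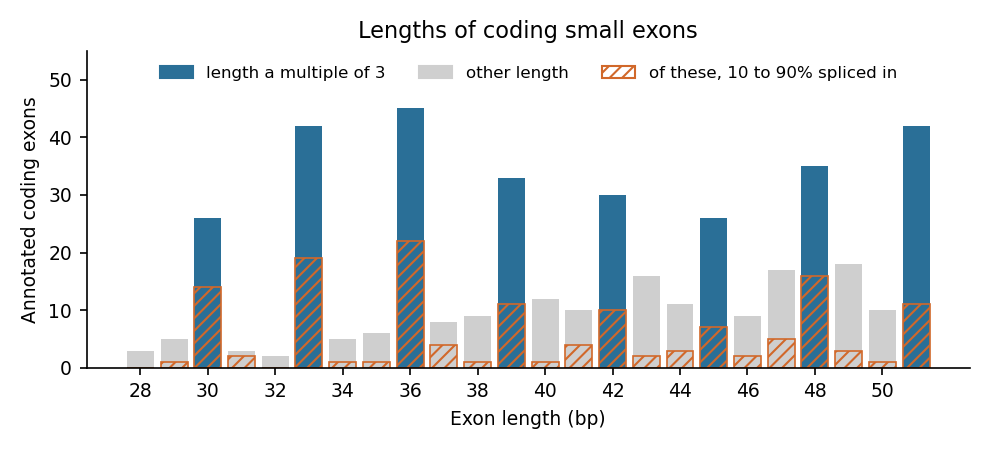
Number of annotated coding small exons (y axis) by exon length in bp (x axis), with lengths divisible by 3 in blue, other lengths in grey, and exons of 10 to 90% spliced in hatched. The high bars stand at lengths divisible by 3, with 279 exons at multiples of 3 and 144 at other lengths.

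Exons on either side of the limits that chose the members are given as a description. Annotated exons of 28 bp (5 exons) had a median of 16.8% and those of 27 bp (37 exons) 81.6%, while the 26 exons of 30 bp had 75.1%. At the upper limit, 51 exons of 51 bp had a median of 92.6% and 36 exons of 52 bp 94.9%. By reads, 23 exons with 10 reads in the smaller library had a median of 40.0%, and 23 exons with 11 had 16.8%. Just below the limit, 28 exons with 9 had 44.1%, and 24 exons with 8 had 24.6%.

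Introns and base composition were set beside those of the other lengths, with no test. The median upstream and downstream introns were 1460.5 and 1838 bp for annotated small exons, 1611 and 1378 bp for microexons, and 2048.5 and 1875.5 bp for longer exons. Median GC content was 48.5% in annotated small exons, 46.7% in microexons and 50.7% in longer exons. The last 2 bases were AG in 53.6%, 52.6% and 54.0%. The hexamer TGCATG, bound by Rbfox proteins, was searched for on the sense strand within the exons and occurred in 9 annotated small exons (1.62%), in 1.5% of microexons and in 3.26% of longer exons. These shares are per exon and were not adjusted for length, and a longer exon has more positions for a hexamer. Introns, where this hexamer is known to act, were not analysed here.

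Most highly read small exons were nearly constitutive or nearly absent. Calm2, which encodes calmodulin, had the most reads: its 31-bp coding exon was included by 2297 reads and skipped by 5 in replicate 1 (99.8%), and included by 3029 and skipped by 6 in replicate 2 (99.8%). The 45-bp exon of Gnas, the stimulatory G protein alpha subunit, stood at 99.5% and 99.8%, and the 47-bp exon of the reticulon gene Rtn1 at 100% and 99.9%. At the other end were unannotated exons that rested on 1 read, a 45-bp exon of the 14-3-3 gene Ywhae and a 28-bp exon of the tetraspanin gene Tspan7. The 5 lowest exons were those of Actg1, Ywhae, Tspan7, the Rac regulator Chn1 and the membrane protein gene Itm2b, each with 1 inclusion read over both libraries.

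Ndrg4, a gene of neurons and heart, had 2 of the 10 most-read small exons, and they differed in use. The 39-bp exon was included by 1105 reads and skipped by 809 in replicate 1 (57.7%, 95% Wilson interval 55.5% to 59.9%), and included by 969 and skipped by 881 in replicate 2 (52.4%, 50.1% to 54.6%). The 48-bp exon, which lies upstream and was not joined directly to the 39-bp exon, stood at 98.8% and 98.7%. Small exons of related genes ranged widely: the 39-bp exon of Ndrg3 stood at 6.55% and 6.22%, its 36-bp exon at 97.5% and 95.3%, and the 42-bp exon of Ndrg2, which in brain marks astrocytes, at 19.2% and 19.2%.

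The 12 most-read exons with a mean of 20 to 80% gave the most precise intermediate values, each between its most-read neighbours. Klc1, the kinesin light chain that links the motor to cargo, included its 51-bp exon at 46.2% (308 inclusion and 358 skipping reads) in replicate 1 and 46.4% (346 and 400) in replicate 2. Gnb1, a G protein beta subunit, included a 49-bp exon of its 5′ untranslated sequence on 299 of 427 reads in replicate 1 and 429 of 618 in replicate 2 (69.4%). The libraries were within 1 percentage point for both exons.

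Metabolic and secretory enzymes were among these 12. Tecr, the reductase of the last step of very-long-chain fatty acid synthesis, included its 45-bp exon at 36.1% (155 and 274 reads) in replicate 1 and 35.6% (171 and 309 reads) in replicate 2. The 30-bp exon of Acly, which makes cytosolic acetyl-CoA from citrate, stood at 58.8% (107 and 75 reads) and 60.1% (89 and 59 reads). Rpn2, a subunit of the oligosaccharyltransferase, included a 48-bp exon at 63.6% (140 and 80 reads) and 67.2% (170 and 83 reads). The order of Tecr below Acly and of Acly below Rpn2 held in each library, but the intervals of Acly and Rpn2 overlapped.

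Membrane and RNA-binding proteins made up most of the others. Aplp2, the paralogue of the amyloid precursor protein, included its 36-bp exon at 82.4% (380 and 81 reads) in replicate 1 and 75.9% (340 and 108 reads) in replicate 2. The 30-bp exon of Clstn1, a calsyntenin of the synaptic membrane, stood at 42.2% (86 and 118 reads) and 40.7% (122 and 178 reads). The 51-bp exon of the splicing factor Puf60 stood at 60.5% (178 and 116 reads) and 62.4% (191 and 115 reads). The remaining 3 were Hnrnph2 (45 bp, 5′ untranslated, 76.0% and 70.2%), Mff (33 bp, 28.1% and 37.5%) and the ubiquitin ligase gene Mgrn1 (45 bp, 70.5% and 65.6%). Whatever its neighbours, the Mff exon was on 46 of 228 reads that also spanned the following 60-bp exon in replicate 1. In replicate 2 it was on 66 of 260. With Known models alone, Rpn2 stood at 10.4%, Aplp2 at 26.7% and Klc1 at 100% as means, and the cause was not tested. Only the Ndrg4 exon had intervals of the libraries that did not overlap among these 12.

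**Figure D3:**
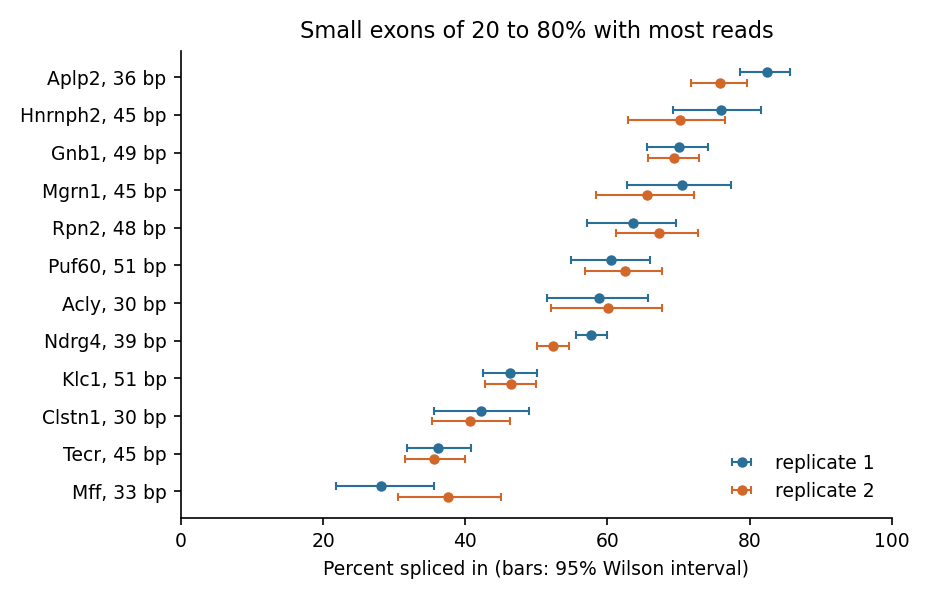
Percent spliced in (x axis) of the 12 small exons of 20 to 80% with most reads, for replicate 1 (blue) and replicate 2 (orange), with 95% Wilson intervals. The values run between 32.8% for Mff and 79.2% for Aplp2 as means, and the interval pairs overlap except for Ndrg4.

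The libraries gave closely similar percent spliced in. Over the 554 annotated small exons, which share libraries and were not independent, Pearson's r between the libraries was 0.982 and the median absolute difference 3.13 percentage points. The 95% intervals of the libraries overlapped in 551 of 554. Among the 184 exons of 10 to 90% r was 0.908 and the median difference 6.6 points, and 15 differed by more than 20 points.

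Fisher's exact test per exon found 0 of the 807 small exons past an adjusted p of 0.05, with Benjamini-Hochberg adjustment over all 9311 exons, of which 0 passed (0%). At an unadjusted two-sided p under 0.05 there were 15 of the 807 small exons, 13 of them annotated, against 103 of all 9311 exons. A chi-square test with continuity correction gave 10 small exons at this unadjusted threshold and 0 past an adjusted p of 0.05. By the exact test, the Ndrg4 39-bp exon had the lowest unadjusted p (0.00105), with a difference of 5.35 points, replicate 1 minus replicate 2. The 39-bp exon of Dnm1l, the dynamin-related GTPase that divides mitochondria, differed more: 67 inclusion and 50 skipping reads in replicate 1 (57.3%), against 45 and 75 in replicate 2 (37.5%), with an unadjusted p of 0.00277 by the exact test. Its 33-bp exon stood at 84.2% and 89.4%. These tests set 2 libraries of 1 group against counting error and compare no conditions.

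**Figure D4:**
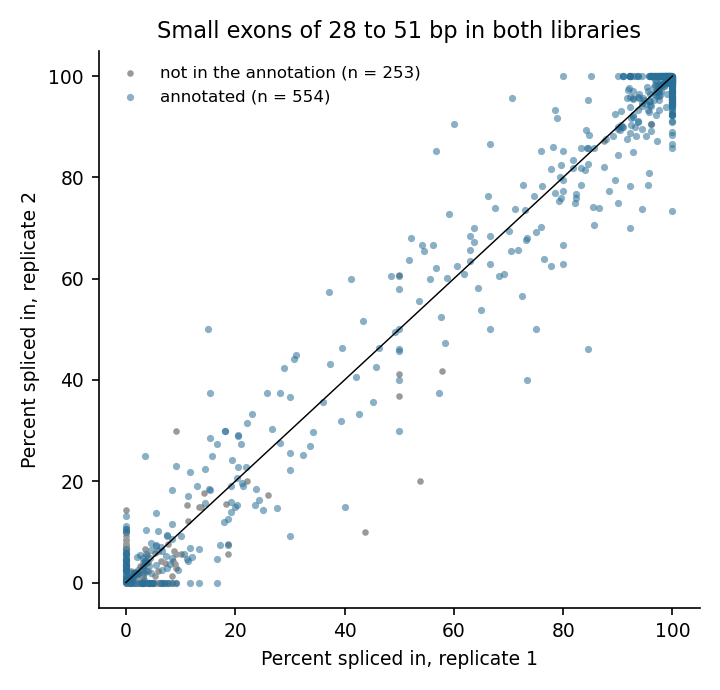
Percent spliced in of the 807 small exons in replicate 1 (x axis) and replicate 2 (y axis), annotated exons in blue and unannotated exons in grey, with the line of equality. Points gather at both ends, unannotated exons near 0, and the annotated exons follow the line with r = 0.982, or 0.908 for those of 10 to 90%.

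Small exons were counted by gene group, to be read against the 33.2% of all annotated small exons that were intermediate (10 to 90%). Of 16 annotated small exons in genes of synaptic and exocytosis proteins, 12 stood between 10 and 90% (median 66.5%). Besides Aplp2 these included a 30-bp exon of the scaffold gene Dlgap1, with 61 inclusion and 36 skipping reads in replicate 1 (62.9%) and 78 and 45 in replicate 2 (63.4%). The 42-bp exon of Dlg3, a membrane-associated guanylate kinase, stood at 58.3% and 47.3%. The lists are short, and nothing particular to a list was tested.

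Among the 8 annotated small exons in adhesion genes and receptor phosphatases, 6 were intermediate (median 49.0%). The 30-bp exon of the neural cell adhesion molecule Ncam1, at chr9:49550540-49550569, was included by 46 reads and skipped by 35 in replicate 1 (56.8%) and included by 54 and skipped by 33 in replicate 2 (62.1%). Cd47, the "don't eat me" receptor of cell surfaces, held a coding exon of 33 bp at 99.0% and 98.8% between its most-read neighbours. A noncoding exon of 45 bp stood at 2.06% and 1.95%. Whatever its neighbours, the 33-bp exon was on 299 of 341 reads that spanned both exons in replicate 1. In replicate 2 it was on 257 of 305. Mag, a myelin glycoprotein, included a 45-bp exon at 14.5% and 15.8%.

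Genes of endocytosis and vesicle coats held 11 annotated small exons (median 47.4%), of which 5 were intermediate, 3 under 10% and 3 over 90%. The exons of Dnm1l, given above, had the most reads. Clta, clathrin light chain, included the 36-bp exon of its neuronal insertion at 88.4% (84 and 11 reads) and 77.4% (89 and 26 reads). The Clta shares count only reads with the 54-bp exon that precedes the 36-bp exon. Without the 54-bp exon, the 36-bp exon was on 0 of 10 reads in replicate 1, which allows up to 30%. In replicate 2 it was on 8 of 26 such reads (30.8%). Cytoskeletal genes held 13 (median 40.4%), 6 of them intermediate. In that list Klc1 was followed among annotated exons by Myl6, the nonmuscle myosin light chain, whose 45-bp exon stood at 19.3% and 16.0%.

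Kinases and phosphatases held 17 annotated small exons (median 82.6%), with 7 intermediate, 7 over 90% and 3 under 10%. The 30-bp exon of Ppp3ca, a catalytic subunit of calcineurin, was included by 783 reads and skipped by 157 in replicate 1 (83.3%) and included by 830 and skipped by 184 in replicate 2 (81.9%). The 45-bp exon of the synaptic kinase Camk2b stood at 92.3% and 95.9%. Genes of RNA binding and splicing held 22 annotated small exons (median 87.0%), 9 of them intermediate and 9 over 90%. The most-read of these was the 44-bp exon of Hnrnpk (97.5% and 97.5%).

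The remaining lists were small. The list of small GTPases and their regulators, in which Gnas of the heterotrimeric G proteins was also placed, held 5 annotated exons, of which 1 was intermediate, 1 under 10% and 3 over 90%. Gnas and Rap1gap (41 bp, 99.6% and 100%) had the most reads in it. Channels, pumps and transmitter receptors had 5, of which 1 was intermediate, 2 were over 90% and 2 under 10%, among them a 41-bp exon of the AMPA receptor gene Gria2 found only in decay targets (1 of 145 reads in replicate 1, and 0 of 171 in replicate 2, which allows up to 1.75%). Transcription and chromatin genes had 4, of which 2 were intermediate, with Zmynd11 (45 bp) at 3.26% and 1.83% and Meaf6 (30 bp) on 45 of 47 and 38 of 40 reads. The other 676 small exons lay in genes of no list.

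Small exons of like sequence in different genes are shown next, to set their use side by side. Among annotated small exons, 7 pairs in different genes had equal length and 70% or more identical bases, and 4 of these pairs are printed with the exon in capitals between the bases of its neighbours.
Ppp3ca 30 bp: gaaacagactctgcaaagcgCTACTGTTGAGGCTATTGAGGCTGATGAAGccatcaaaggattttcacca
Ppp3cb 30 bp: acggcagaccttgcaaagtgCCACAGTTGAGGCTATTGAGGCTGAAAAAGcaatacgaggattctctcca
Camk2g 33 bp: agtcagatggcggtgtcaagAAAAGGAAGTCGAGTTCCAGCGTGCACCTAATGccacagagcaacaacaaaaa
Camk2d 33 bp: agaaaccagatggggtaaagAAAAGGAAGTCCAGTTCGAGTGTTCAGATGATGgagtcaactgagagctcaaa
Mbnl2 36 bp: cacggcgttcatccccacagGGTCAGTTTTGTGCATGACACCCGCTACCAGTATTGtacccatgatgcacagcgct
Mbnl1 36 bp: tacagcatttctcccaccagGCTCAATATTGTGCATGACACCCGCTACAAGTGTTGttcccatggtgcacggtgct
Rbfox1 40 bp: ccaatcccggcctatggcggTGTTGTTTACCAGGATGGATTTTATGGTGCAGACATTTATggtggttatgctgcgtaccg
Rbfox2 40 bp: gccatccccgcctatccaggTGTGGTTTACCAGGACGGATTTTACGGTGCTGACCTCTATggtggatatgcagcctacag

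The calcineurin exons of Ppp3ca and Ppp3cb matched in 26 of 30 bases (86.7%), and Ppp3ca stood at 82.6% ± 1.02 and Ppp3cb at 99.6% ± 0.579 (mean ± SD, n = 2). The 33-bp exons of the kinase genes Camk2g and Camk2d matched in 26 bases (78.8%). This exon, which encodes a nuclear localization signal, was included by 33 reads and skipped by 3 for Camk2g in replicate 1 (91.7%) and by 49 and 7 in replicate 2 (87.5%). Whatever its neighbours, the Camk2g exon was on 49 of 63 reads that also spanned the following 69-bp exon in replicate 1. In replicate 2 it was on 78 of 94. For Camk2d the 33-bp exon was included by 1 read and skipped by 11 in replicate 1, and by 0 of 11 in replicate 2, which allows a share of up to 27.3%. The like exons thus stood far apart, with few reads for Camk2d. No test was made between genes.

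Splicing regulators made up further pairs. The 36-bp exons of the muscleblind splicing regulators Mbnl2 and Mbnl1 matched in 31 bases (86.1%), and each contains the hexamer TGCATG. They stood at 84.0% and 81.5% for Mbnl2 and at 81.8% and 81.8% for Mbnl1, the second from 11 reads a library. The Mbnl2 shares count only reads with the 95-bp exon that follows. Of all reads that spanned both exons, the Mbnl2 36-bp exon was on 72 of 135 in replicate 1 and 78 of 138 in replicate 2. The 40-bp exons of Rbfox1 and Rbfox2 matched in 34 bases (85.0%) and stood at 85.2% and 100% for Rbfox1 and at 76.0% and 85.2% for Rbfox2. The remaining pairs were Elavl4 with Elavl2 (39 bp, 84.6% identity), Adgrb2 with Adgrb1 (40 bp, 77.5%), and Fam168b with Homer1 (36 bp, 77.8%), which belong to unrelated families. The Homer1 exon stood at 100% and 96.8% and the Fam168b exon at 28.2% and 27.5%.

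Some small exons had neighbouring forms that shared an end and both neighbouring exons. There were 43 such pairs of forms, 29 that differed at the acceptor and 14 at the donor, and 13 differed by 3 bases. In 7 pairs both forms had 10 or more inclusion reads. Each form is set against the skipping reads alone, so its percent spliced in leaves out the other form. The longer forms of 3 genes are printed, with the bases that the shorter form lacks in capitals.
Eif4a2 49 bp: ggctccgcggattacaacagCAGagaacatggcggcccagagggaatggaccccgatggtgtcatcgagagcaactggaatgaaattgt
Trim9 33 bp: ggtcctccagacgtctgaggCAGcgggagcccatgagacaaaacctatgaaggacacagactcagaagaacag
Rbm39 51 bp: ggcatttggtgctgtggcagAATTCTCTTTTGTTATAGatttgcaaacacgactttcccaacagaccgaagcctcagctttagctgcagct

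The extra bases ended in AG, the last bases of an intron used at an acceptor, in all 19 acceptor pairs with an annotated longer form outside chromosome 18. Of the Eif4a2 inclusion reads, from a translation initiation helicase gene, the 49-bp form made up 26.9% of 517 in replicate 1 (95% Wilson interval 23.2% to 30.9%) and 27.3% of 556 in replicate 2 (23.8% to 31.2%). For Trim9, a brain ubiquitin ligase, the 33-bp form made up 78.0% of 132 (70.2% to 84.2%) and 67.2% of 131 (58.7% to 74.6%), with the 30-bp form as the rest. In Rbm39, a splicing factor, the 51-bp form made up 66.9% of 236 (60.7% to 72.6%) and 60.8% of 227 (54.3% to 66.9%), with a 33-bp form as the rest. The 3-base choice of Eif4a2 differed by less than the counting error between the libraries.

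Reads that spanned a pair of exons showed which were used together. Of 258 pairs with a small exon, 29 in 25 genes passed Fisher's exact test in both libraries with the same direction (11.2%), against 142 of all 1044 pairs tested (13.6%), the small exons included. In 23 the exons occurred together more often than their frequencies give, and in 6 they kept apart. The exons were joined directly on reads in 16 of the 29. Reads without an exon are those that spliced across it, and reads with an overlapping form of it were left out. With Known models alone, 25 pairs with a small exon could be tested and 12 were called. Reads of a library are not replicates, and each library is given beside the other.

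**Figure D5:**
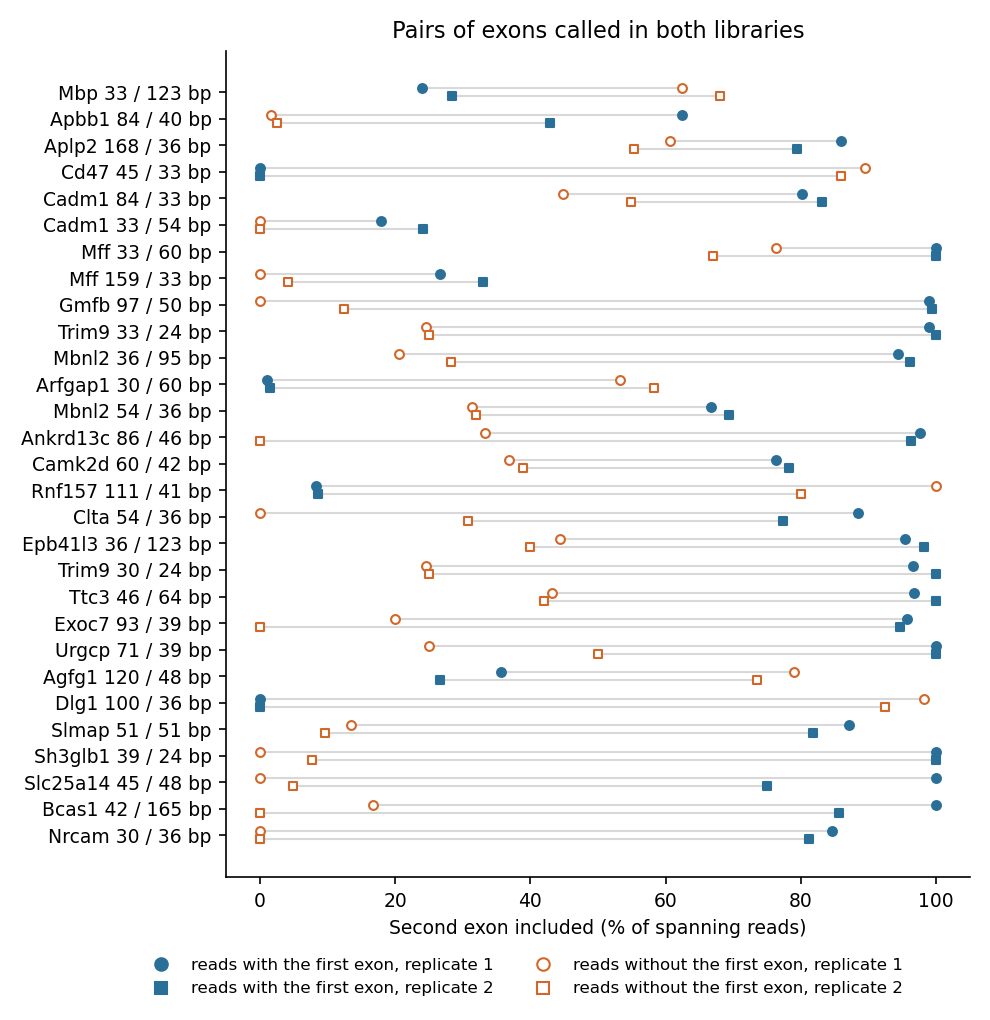
Share of spanning reads that include the second exon, in transcript order (x axis, percent), for reads with the first exon (filled blue) and without it (open orange), in replicate 1 (circles) and replicate 2 (squares), for the 29 called pairs with a small exon. Labels give the gene and the lengths of the first and second exon, with most reads at the top, and in 6 pairs, such as Cd47, the filled markers lie to the left.

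Mff, the mitochondrial receptor of the Dnm1l protein, used its 33-bp exon with both of its neighbours. The following 60-bp exon was included on 46 of 46 reads with the 33-bp exon and on 139 of 182 without it (76.4%) in replicate 1, and on 66 of 66 with it and 130 of 194 without it (67.0%) in replicate 2 (adjusted p = 0.000347 and 8.12e-09, Fisher's exact test). The 33-bp exon was included on 45 of 169 reads with the preceding 159-bp exon (26.6%) and on 0 of 56 without it in replicate 1, which allows a share of up to 5.36%. In replicate 2 it was included on 59 of 179 with that exon (33.0%) and on 3 of 73 without it (4.11%). A 42-bp form of the 159-bp exon, left out here, was joined with the 33-bp exon on 1 further read in replicate 1 and 4 in replicate 2.

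Cadm1, a synaptic cell adhesion molecule, showed a similar order in its run of short exons. Its 33-bp exon was included on 65 of 81 reads with the preceding 84-bp exon (80.2%) and on 86 of 192 without it (44.8%) in replicate 1, and on 59 of 71 with it (83.1%) and 90 of 164 without it (54.9%) in replicate 2. The 54-bp exon that follows was included on 27 of 151 reads with the 33-bp exon (17.9%) and on 0 of 122 without it in replicate 1, which allows up to 2.46%. In replicate 2 it was included on 36 of 149 reads with the 33-bp exon (24.2%) and on 0 of 86 without it, which allows up to 3.49%. The adjusted p of the second pair was 7.72e-07 and 3.62e-07 by Fisher's exact test.

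Aplp2 combined its 36-bp exon more often with the 168-bp exon upstream. The 36-bp exon was on 337 of 392 reads with the 168-bp exon (86.0%) and on 37 of 61 without it (60.7%) in replicate 1, and on 301 of 379 with it (79.4%) and 31 of 56 without it (55.4%) in replicate 2. Apbb1, whose product binds the tails of this protein family, joined a 40-bp 5′ untranslated exon to a preceding 84-bp exon on 5 of 8 reads with it and 9 of 541 without it (1.66%) in replicate 1. In replicate 2 the 40-bp exon was on 3 of 7 reads with the 84-bp exon and on 18 of 696 without it (2.59%). The Apbb1 call rests on few reads with the rare 84-bp exon.

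Exons kept apart in Cd47 and in the myelin gene Mbp. No read of Cd47 held both the 45-bp and the 33-bp exon: the 33-bp exon was on 0 of 7 reads with the 45-bp exon and on 299 of 334 without it (89.5%) in replicate 1, and on 0 of 6 with it and 257 of 299 without it (86.0%) in replicate 2. With 7 and 6 reads, the shares of 0 allow up to 42.9% and 50%. In Mbp, the 123-bp exon was on 285 of 1185 reads with the 33-bp exon before it (24.1%) and on 35 of 56 without it (62.5%) in replicate 1. In replicate 2 it was on 270 of 948 reads with the 33-bp exon (28.5%) and on 32 of 47 without it (68.1%).

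Outside the 8 most-read pairs the same patterns recurred with fewer reads, in genes named after their values were seen. In Mbnl2 the 95-bp exon was on 68 of 72 reads with the 36-bp exon (94.4%) and on 13 of 63 without it (20.6%) in replicate 1, and on 75 of 78 with it (96.2%) and 17 of 60 without it (28.3%) in replicate 2. In Trim9 a 24-bp microexon was on all but 1 of 104 reads with the 33-bp form (99.0%) and on 17 of 69 that skipped both forms of that exon (24.6%) in replicate 1, and on 88 of 88 with the 33-bp form and 22 of 88 that skipped both (25%) in replicate 2. With the 30-bp form it was on 28 of 29 reads in replicate 1 and 43 of 43 in replicate 2. The neuronal exons of Clta followed each other: the 36-bp exon was on 84 of 95 reads with the 54-bp exon (88.4%) and 0 of 10 without it in replicate 1, which allows up to 30%, and on 89 of 115 with it (77.4%) and 8 of 26 without it (30.8%) in replicate 2. Dlg1, Arfgap1, Rnf157 and Agfg1 were the other genes whose exons kept apart.

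Genes with several small exons on the same reads gave pairs made of small exons alone. Slmap, which encodes a protein of the sarcolemma and of centrosomes, held exons of 51 and 51 bp: the second was on 27 of 31 reads with the first (87.1%) and on 5 of 37 without it (13.5%) in replicate 1, and on 18 of 22 with it (81.8%) and 3 of 31 without it (9.68%) in replicate 2. In Nrcam, a neuronal adhesion molecule, the 36-bp exon was on 11 of 13 reads with the 30-bp exon and on 0 of 11 without it in replicate 1, which allows up to 27.3%, and on 13 of 16 with it and 0 of 6 without it in replicate 2, which allows up to 50%. Both pairs showed the same direction in each library, from few reads.

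In the kinase gene Camk2d, the 42-bp exon was on 100 of 131 reads with the 60-bp exon (76.3%) and on 7 of 19 without it (36.8%) in replicate 1, and on 79 of 101 with it (78.2%) and 7 of 18 without it (38.9%) in replicate 2. The exon that follows it also follows the rare 33-bp exon of the gene printed above. In Dlg1, the scaffold SAP97, no read held both the 100-bp and the 36-bp exon: the 36-bp exon was on 0 of 6 reads with the 100-bp exon and on 55 of 56 without it (98.2%) in replicate 1, and on 0 of 7 with it and 49 of 53 without it (92.5%) in replicate 2. The shares of 0 allow up to 50% and 42.9%.

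Small exons of a single gene could stand at opposite ends of the range. In Camk2b the 45-bp exon was at 92.3% and 95.9%, and a 33-bp exon was on 1 of 289 and 2 of 326 reads (0.346% and 0.613%). In Rap1gap, a GTPase-activating protein for Rap, a 36-bp exon stood at 3.40% and 2.22% between its most-read neighbours, beside the 41-bp exon near full inclusion. Whatever its neighbours, it was on 17 of 217 reads with the 41-bp exon in replicate 1 (7.83%) and on 20 of 247 in replicate 2 (8.10%). Of the 685 genes, 100 held 2 or more small exons, and no gene held more than 4. Overlap of exons was part of this, since 84 of the 807 overlapped another small exon and share its reads.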

How the data were processed

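The authors deposited, per library, whole-number counts of reads per transcript model, not normalized, and the exon structure of each model. Per the text deposited beside the tables, mm10 and the annotation of GENCODE M21 (primary assembly) were used, and TALON is named in the models. Not given in the sources used here: the aligner and software versions.

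Exon counts were summed from the models of known genes, with the neighbour pair of most reads used for each exon. How reliably exons of this length were aligned was not tested. Percent spliced in has 95% Wilson intervals. Libraries were compared per exon, and pairs of exons on the same reads per library (20 or more spanning reads in each, 5 or more in each margin), by two-sided Fisher's exact tests (scipy 1.17.1) with Benjamini-Hochberg adjustment at 0.05. The tests were checked on simulated data with large changes at exons with many reads. That check does not show what the tests find at the fewer reads of most small exons. Genes were named by reads, by a mean of 20 to 80% or the lowest mean, by called pairs (8 at most) and by 2 genes in each of 9 lists, and 1 exon that this rule names is not reported here. The exons and lists were chosen with earlier results of these data known. Positions are 1-based on mm10. Sequences are of the reference strain C57BL/6J, and chromosome 18 sequence is not shown.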

Additional observations from a re-analysis of the deposited data

How the results depend on the processing

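The counts moved by more than 1.5 times under strict read rules. A minimum of 50 reads in each library kept 361 small exons, with a median of 40.2% and 71 exons of 10 to 90%. Known models alone kept 157, with a median of 57.7%, 84 exons of 10 to 90% and 70.1% of lengths divisible by 3. They gave 12 called pairs of 25 tested, instead of 29 of 258. Without models of a single read 347 small exons remained, with a median of 58.8% and 60.2% divisible by 3. The median of 27.8% over all 807 moved to 26.1% with 20 reads, 4.55% with 5 or more skipping reads, 48.1% with all neighbour pairs summed, and 85.2% for annotated exons alone, of which 58.7% were divisible by 3. It was 28.1% and 29.6% in replicate 1 and replicate 2 alone. Over the 336 annotated exons with 5 or more skipping reads the median was 34.5%. The cause of the shifts was not tested.

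The test between the libraries called 0 small exons under all 10 alternatives run, including adjustment over the 1259 exons with 10 or more inclusion and 10 or more skipping reads, chosen after seeing the data. The pairs called were 25 of 172 tested with 50 spanning reads and 24 of 124 without single-read models. Pairs without a small exon were not counted under these settings. Of 39 named exons, 1 moved by more than 5 points when neighbour pairs were summed, Cadm1 to 59.5%. With Known models alone, 23 had a value and 4 moved by more than 5 points: Rpn2 to 10.4%, Aplp2 to 26.7%, Klc1 to 100% and Camk2b to 99.8%. No paired analysis was possible because there is 1 group. Reads per small exon over both libraries ran between 20 and 5337, with a median of 97, and set the precision of each value.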
